A study of Mus musculus with 15 samples.

Results

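The 6 libraries described here came from bone marrow-derived macrophages of STAT5 cKO mice, 3 after rmGM-CSF and 3 after 4T1 CM, out of 15 libraries in the series. Members were chosen by the genotype and stimulus in the library labels, and the libraries were paired by the mouse number there (114, 115 and 116). The mice were 6 weeks old and of the BALB/c background. They carried floxed Stat5 alleles and Csf1r-iCre, a Cre driven by the Csf1r promoter, so that the deletion reaches myeloid cells in general and is not restricted to macrophages. Macrophages of each mouse were held for 2 h in serum-free DMEM, in DMEM with 20 ng/mL rmGM-CSF (recombinant mouse GM-CSF), or in 4T1 CM, the medium that cells of the BALB/c mammary tumor line 4T1 had conditioned without serum. The 3 DMEM libraries of the same mice gave the unstimulated level. The 4 rmGM-CSF and 4T1 CM libraries of 2 STAT5 fl/fl mice (112 and 113), which have the floxed alleles and keep STAT5, gave the same contrast with STAT5 present. One stimulus is a single cytokine at a known dose, the other a mixture, and the amount of GM-CSF in 4T1 CM was not analysed here, so the stimuli were not matched for GM-CSF.

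GM-CSF binds a receptor made of a specific alpha chain and the beta chain it shares with IL-3 and IL-5. The receptor activates JAK2, which phosphorylates STAT5, and in parallel the MAPK, PI3K and NF-kB pathways. A tumor-conditioned medium can hold cytokines, prostaglandins, growth factors, nucleotides and metabolites, which reach macrophages through many receptors, among them those that raise cAMP and activate CREB. NF-kB drives inflammatory cytokines and chemokines together with its own inhibitors, and CREB drives immediate early genes such as the Nr4a nuclear receptors.

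Levels are normalized CPM (nCPM, read counts scaled to the size of each library), given for every mouse in the order 114, 115 and 116, or as the range over the 3 mice. The 6 libraries held 16016736 to 22883108 assigned read pairs each. Differences are log2 fold changes, 4T1 CM minus rmGM-CSF, with the standard error (SE) and the adjusted p of edgeR's quasi-likelihood F test, in which the mouse was a block. A gene was called at an adjusted p under 0.01, with the Benjamini-Hochberg adjustment over all 13005 tested genes.

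The deletion was seen in every library. Stat5a was between 0 and 0.142 nCPM and Stat5b between 0 and 0.189 nCPM in the 9 cKO libraries, where 3 counts correspond to 0.131 to 0.187 CPM, and the 6 fl/fl libraries held 29 to 45 and 60.8 to 77.7 nCPM. All 9 macrophage markers exceeded 3 counts in the 6 libraries, with summed levels of 32905 to 35994 nCPM after rmGM-CSF and 33833 to 43049 nCPM after 4T1 CM, and 4 of the 9 were called higher in 4T1 CM. Summed levels of 8 epithelial and mammary tumor markers were 0 to 0.049 nCPM after rmGM-CSF and 1.23 to 2.26 nCPM after 4T1 CM. Cdh1 (E-cadherin) was the member that moved, with 24 to 47 counts per library after 4T1 CM, while Krt5, Krt8 and Krt14 were at 0 counts in all 6 libraries. Erythroid and megakaryocyte markers summed to 5.81 to 8.63 and 10.3 to 18.7 nCPM, through Pf4, with Hba-a1 at 0. Endothelial markers summed to 56.4 to 70.2 and 72.8 to 96.3 nCPM through Kdr, with Emcn at 0, and neutrophil markers to 0.49 to 1.16 and 0.946 to 2.5 nCPM, with Ly6g and S100a9 at 0 and S100a8 called higher (means of 0.739 and 1.64 nCPM, log2 1.10, adjusted p = 0.00864). Dendritic cell markers summed to 3.08 to 3.77 and 1.61 to 2.81 nCPM, lymphocyte markers to 5.93 to 6.51 and 6.57 to 6.7 nCPM, and fibroblast markers to 11.2 to 13.1 and 9.25 to 15.5 nCPM. The part of these markers in the results below was not tested. In bulk RNA, fewer cells of a type and less RNA per cell cannot be told apart. Libraries of 4T1 CM varied more between mice than those of rmGM-CSF: the chi-square per gene between pairs of mice was 11.9 to 23.2 against 4.42 to 5.34, and the pair without mouse 115 gave the 11.9.

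In cells without STAT5 the stimuli left different transcriptomes. Of 13005 tested genes, 4706 (36.2%) were called, 2292 (17.6%) higher in 4T1 CM and 2414 (18.6%) lower, and the median log2 fold change of all tested genes was 0.01. Counts of called list members given below are to be read against these shares of 17.6% and 18.6%. The higher genes moved further: their median was 0.69 against -0.44 for the lower genes, and 749 against 289 moved by at least 1 on the log2 scale, 100 against 21 by at least 3. Nearly all calls held mouse by mouse, with the same direction in all 3 mice for 4700 genes and levels that did not overlap for 4606. Over all tested genes, the levels of the 3 mice did not overlap for 54.8%.

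The 12 genes furthest above rmGM-CSF, among called genes with a mean of at least 10 nCPM in the higher group, were low or barely detected after rmGM-CSF and in DMEM. Thbs1 (chr2:118111876-118127133), which encodes the matrix protein thrombospondin-1, stood at 48.9, 36.1 and 39.5 nCPM after rmGM-CSF and at 904, 1136 and 1011 nCPM after 4T1 CM, a log2 fold change of 4.62 (SE 0.11, adjusted p = 1.73e-15). Its DMEM level was 29.7 to 37.7 nCPM, and the difference of rmGM-CSF from DMEM was not called (log2 0.29, adjusted p = 0.049). Nr4a1 (chr15:101254269-101274795), an immediate early nuclear receptor, went from 3.58, 2.5 and 3.38 nCPM to 118, 99.5 and 114 nCPM, 35.3-fold (log2 5.14, SE 0.16, adjusted p = 3.45e-14). Selp, the adhesion receptor P-selectin, went from 0.49, 0.134 and 0.383 nCPM to 27.1, 25 and 28.5 nCPM. Its log2 fold change of 6.34 (SE 0.23) starts from a level near the floor of 3 counts. Nt5e (CD73, the surface enzyme that makes adenosine from AMP) followed with 0.294, 0.579 and 0.511 nCPM against 22.9, 42.7 and 35.5 nCPM. Gja1, the gap junction protein connexin 43, was at 2.35, 2.01 and 1.53 nCPM against 66, 105 and 72.5 nCPM. Nrg1 (a ligand of ErbB receptors), Tlr5 (the flagellin receptor), Gpr35 (a G protein-coupled receptor), Rab44 (a small GTPase), Pde4d (a cAMP phosphodiesterase), Spsb1 (a SOCS box adaptor) and the unannotated E230029C05Rik completed these 12 genes together with Thbs1 and Nr4a1, with log2 fold changes of 4.47 to 4.84.

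Of the 12 genes furthest below rmGM-CSF by the same rule, all but Kcnj2 were genes that rmGM-CSF itself had raised over DMEM, and many encode inflammatory mediators. Tnf (chr17:35199381-35202007), the macrophage cytokine TNF, reached 704, 716 and 729 nCPM after rmGM-CSF and 27.6, 20.2 and 31.6 nCPM after 4T1 CM, a level 27.3-fold lower (log2 -4.77, SE 0.10, adjusted p = 3.42e-16). In DMEM it was at 21.5 to 26.3 nCPM, a range that overlaps that of 4T1 CM (log2 0.15 against DMEM, adjusted p = 0.24). Kcnj2, an inward rectifier potassium channel, took the other course. It stood at 189 to 210 nCPM after rmGM-CSF and 190 to 211 nCPM in DMEM, and fell in 4T1 CM to 6.76, 6.89 and 6.34 nCPM (log2 -4.90, SE 0.08, adjusted p = 1.4e-17). Slco4a1 (an organic anion transporter), Tal2 (a basic helix-loop-helix factor) and Rasgef1b (a Ras exchange factor) also ended below DMEM after 4T1 CM, with log2 fold changes against DMEM of -2.92, -3.17 and -1.78. Acod1, which makes itaconate, Cd69, an early activation antigen, and Chac1, which degrades glutathione, were at 438 to 614, 38.6 to 41.6 and 14.5 to 26.3 nCPM after rmGM-CSF and at 23 to 47.4, 1.51 to 3.44 and 0.85 to 1.58 nCPM after 4T1 CM.

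**Figure D1:**
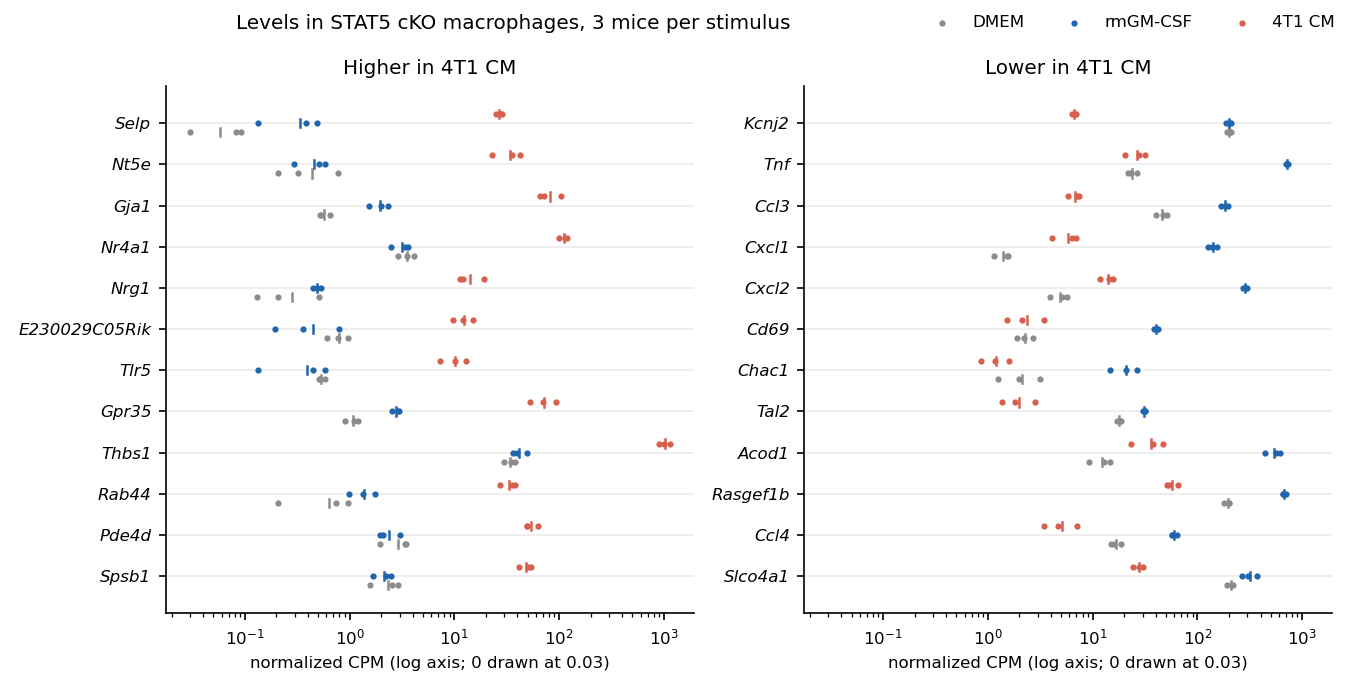
Normalized CPM (log axis) of the 12 genes per direction with the largest log2 fold change, in STAT5 cKO macrophages after DMEM (grey), rmGM-CSF (blue) and 4T1 CM (red). Points are the 3 mice and bars their means. Tnf sits at 704 to 729 nCPM after rmGM-CSF alone, while Thbs1 reaches 904 to 1136 nCPM after 4T1 CM alone.

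Cxcl1 and Cxcl2, ligands of the neutrophil receptor CXCR2, were at 154, 138 and 126 nCPM and at 295, 288 and 272 nCPM after rmGM-CSF. After 4T1 CM they were at 6.95, 4.06 and 6.34 nCPM and at 15.6, 11.8 and 14.3 nCPM (log2 -4.60 and -4.36). Both stayed above DMEM, where Cxcl1 was at 1.13 to 1.56 and Cxcl2 at 3.91 to 5.65 nCPM (log2 2.03 and 1.5 for 4T1 CM minus DMEM, adjusted p = 3.36e-08 and 8.9e-09). Cxcl3, of the same subfamily, was at 6.76, 7.09 and 5.55 nCPM against 0.615, 1.09 and 0.769 nCPM. Of 7 tested CXC chemokines, 4 were lower and 1 higher, with a median of -1.95 (-2.46 to -1.83 over the alternatives). The higher one was Cxcl14, a constitutive chemokine, at 79.2, 99 and 82 nCPM after rmGM-CSF and 430, 496 and 476 nCPM after 4T1 CM (log2 2.43).

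The CC chemokines divided. Of 11 tested, 5 (45.45%) were lower and 3 (27.27%) higher, against 18.6% and 17.6% of all tested genes, with a median of -0.47. It was -0.175 when only the 9 cKO libraries or the 6 libraries of the contrast were fitted. Those fits applied the low-count filter anew, so the members behind the median can differ. Ccl3 and Ccl4, the macrophage inflammatory proteins MIP-1 alpha and beta, were at 168, 183 and 194 nCPM and at 57.2, 57.2 and 63.1 nCPM after rmGM-CSF, and at 7.14, 5.85 and 7.38 nCPM and at 4.63, 3.45 and 7.15 nCPM after 4T1 CM (log2 -4.74 and -3.56), below their DMEM levels (log2 -2.76 and -1.72 for 4T1 CM minus DMEM). Ccl2 and Ccl7, which attract monocytes through CCR2, leaned the other way at low levels. Ccl2 was at 9.61, 8.69 and 11.9 nCPM against 12.2, 16.7 and 17.5 nCPM (log2 0.63, adjusted p = 9.68e-04), and Ccl7 at 1.67, 2.05 and 2.55 against 5.06, 5.81 and 5.2 nCPM (log2 1.38). Over the alternatives the highest adjusted p of Ccl2 was 0.165. Without mouse 115 only 1 CC chemokine was called higher, and Ccl2 was no longer called (log2 0.46, adjusted p = 0.0232). The T cell chemoattractant Ccl5 was decided by that mouse: it was at 124 nCPM after 4T1 CM there and at 3.73 and 5.16 nCPM in the others, against 11.1 to 15 nCPM after rmGM-CSF. Its log2 fold change was 0.74 with all mice (adjusted p = 0.363) and -1.52 without mouse 115 (adjusted p = 3.27e-07).

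Cytokines did not move as a block either. Of 9 tested inflammatory cytokines (16 listed), 5 were higher and 4 lower. Osm (oncostatin M, an IL-6 family cytokine) rose from 6.08, 6.2 and 5.04 nCPM to 49.9, 54.6 and 55.7 nCPM (log2 3.20, SE 0.10, adjusted p = 3.41e-14). Il1rn, the antagonist of the IL-1 receptor, rose from 105, 129 and 118 nCPM to 316, 453 and 339 nCPM (log2 1.64). Its counterpart Il1a fell from 7.55, 11 and 9 nCPM to 4.3, 4.96 and 5.84 nCPM (log2 -0.87), and Il27 from 2.4 to 2.76 nCPM to 0.615 to 1.13 nCPM. The highest adjusted p of Il1a over the alternatives was 0.0723, so its call did not hold in every fit. Il1b, chosen after its values were seen, was at 392, 389 and 355 nCPM against 442, 605 and 570 nCPM (log2 0.50, adjusted p = 8.74e-04). Tnf and Il1b, both strong responders to rmGM-CSF, thus parted under 4T1 CM.

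Transcripts of NF-kB subunits and feedback genes were, like Tnf, mostly lower after 4T1 CM than after rmGM-CSF. Unlike Tnf, which was not called against DMEM, their median stayed above DMEM (log2 0.75). NF-kB activity was not measured. Of 18 tested subunits and feedback genes, 16 were lower in 4T1 CM against 18.6% of all tested genes, with a median of -0.76. Nfkbiz (IkB zeta, a nuclear cofactor of secondary response genes) was at 401, 364 and 343 nCPM after rmGM-CSF and at 53.1, 43.4 and 55.9 nCPM after 4T1 CM (log2 -2.87). Tnfaip3 (A20, a ubiquitin-editing inhibitor) was at 379, 378 and 352 nCPM against 102, 79.8 and 105 nCPM (log2 -1.96), and Nfkbia (IkB alpha) at 590, 597 and 621 nCPM against 171, 138 and 171 nCPM (log2 -1.92). Over DMEM, 4T1 CM raised Tnfaip3 and Nfkbia (log2 1.22 and 0.72), while Nfkbiz was not called (log2 0.22, adjusted p = 0.0416). For rmGM-CSF minus DMEM the log2 fold changes were 3.18, 2.63 and 3.09. The single higher member was Bcl3, a nuclear IkB protein, at 104 to 112 against 114 to 142 nCPM (log2 0.24, adjusted p = 0.0036), a call lost without mouse 114 or 116. Cd83, a maturation marker counted in this list, was at 523 to 567 and 443 to 663 nCPM and was not called (adjusted p = 0.442).

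Promoters of these chemokine and feedback genes are shown because they fell together and carry NF-kB motifs (RefSeq, GRCm38.p6, 250 bases before to 50 after each start). Both traits were grounds for the choice, so these sequences do not show that falling genes hold the motif more often. Capitals mark matches on either strand to an NF-kB motif of GGG, 3 free bases and TTCC, or for Tnfaip3 to the shorter GGGNNTTCC, where overlapping matches run together.
Cxcl1 (chr5:90890995-90891294, plus strand): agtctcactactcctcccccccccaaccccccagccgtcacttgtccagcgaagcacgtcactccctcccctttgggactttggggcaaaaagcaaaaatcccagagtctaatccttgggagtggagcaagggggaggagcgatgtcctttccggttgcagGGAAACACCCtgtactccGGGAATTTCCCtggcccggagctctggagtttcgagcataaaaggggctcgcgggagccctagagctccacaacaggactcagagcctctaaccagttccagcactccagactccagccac
Cxcl2 (chr5:90903649-90903948, plus strand): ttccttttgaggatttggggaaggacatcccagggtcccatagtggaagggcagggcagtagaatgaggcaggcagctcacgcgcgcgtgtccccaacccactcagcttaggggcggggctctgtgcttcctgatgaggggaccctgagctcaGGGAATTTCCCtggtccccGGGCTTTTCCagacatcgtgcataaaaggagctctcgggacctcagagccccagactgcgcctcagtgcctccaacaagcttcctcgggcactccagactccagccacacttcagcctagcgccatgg
Cxcl3 (chr5:90785851-90786150, plus strand): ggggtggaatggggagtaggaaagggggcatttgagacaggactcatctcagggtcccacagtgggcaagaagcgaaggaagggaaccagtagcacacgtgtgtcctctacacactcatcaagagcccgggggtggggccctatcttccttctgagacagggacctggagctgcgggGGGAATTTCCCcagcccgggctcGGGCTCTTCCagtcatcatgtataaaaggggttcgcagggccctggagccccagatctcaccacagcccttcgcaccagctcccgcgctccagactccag
Nfkbia (chr12:55492598-55492897, minus strand): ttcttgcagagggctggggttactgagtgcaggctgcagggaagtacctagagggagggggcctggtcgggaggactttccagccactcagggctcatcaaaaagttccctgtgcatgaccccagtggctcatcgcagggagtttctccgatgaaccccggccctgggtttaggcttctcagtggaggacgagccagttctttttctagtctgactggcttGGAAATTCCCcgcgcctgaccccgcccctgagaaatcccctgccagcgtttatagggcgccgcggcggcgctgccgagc
Tnfaip3 (chr10:19015361-19015660, minus strand): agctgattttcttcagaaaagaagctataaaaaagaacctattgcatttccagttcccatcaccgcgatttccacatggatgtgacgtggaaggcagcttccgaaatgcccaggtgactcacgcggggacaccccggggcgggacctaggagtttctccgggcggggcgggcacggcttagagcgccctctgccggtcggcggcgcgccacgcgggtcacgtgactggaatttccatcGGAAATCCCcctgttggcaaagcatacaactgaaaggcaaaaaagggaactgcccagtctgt
The shorter form was held by 8 of the 14 genes of the NF-kB list that have a promoter in the table, against 6.58% of all 27025 genes there (5.82% of 32851 promoters). The list was made of known NF-kB genes, and the holders included Bcl3, its member called higher in 4T1 CM. The longer form, chosen after the first search, was held by 7 of the 14 and by 6.31% of all genes. Among the leading genes, 0 of 9 higher and 2 of 10 lower genes held the shorter form, and 0 and 4 held the longer one. AP-1 (TGANTCA) was found in 3 of the 9 higher genes (Selp, Gja1, Gpr35) and 0 of the 10 lower ones, against 8.97% of all genes. The hypoxia element ACGTG was found in 2 and 3 (21.8% of all genes), while CRE (TGACGTCA, 2.03%), STAT GAS (TTCNNNGAA, 9.55%) and the sterol element (TCACNCCAC, 1.44%) were found in 0 of either. By list, CRE was found in 1 of 9 genes of the cAMP list, the sterol element in 1 of 12 genes of the cholesterol list, and the shorter NF-kB form in 1 of 7 CC and 2 of 6 CXC chemokines, with the longer form in 1 and 4. A match is a description of these letters and shows no binding.

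Of 17 tested pattern recognition genes, 12 (70.6%) were lower and 2 (11.8%) higher, with a median of -0.62. Over all tested genes, 18.6% were lower and 17.6% higher. Tlr2 (lipoprotein receptor) was at 809, 972 and 909 nCPM after rmGM-CSF and 338, 320 and 353 nCPM after 4T1 CM (log2 -1.41). Its partner Tlr1 was at 87.7 to 108 and 25.3 to 28.8 nCPM (log2 -1.81), and Clec4e (Mincle, a lectin for mycobacterial glycolipid) at 615 to 688 and 202 to 277 nCPM (log2 -1.42). The members above rmGM-CSF were Tlr5 and Cd14, the lipopolysaccharide coreceptor, at 2230 to 2236 and 3379 to 3948 nCPM (log2 0.68).

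Among the 31 lists, chosen with earlier results of these data known, genes responsive to cAMP and CREB had the largest median, 3.15. Of 12 tested members, 10 were higher and 2 lower, against 17.6% and 18.6% of all tested genes. The list median against DMEM was -0.03 after rmGM-CSF and 2.76 after 4T1 CM. Activity of cAMP and CREB was not measured. Nr4a2, a relative of Nr4a1, was at 2.06, 1.87 and 1.92 nCPM after rmGM-CSF and 40.2, 46 and 40.7 nCPM after 4T1 CM (log2 4.44, SE 0.15, adjusted p = 6.33e-14), and Nr4a3 at 1.86, 2.67 and 2.23 against 25.4, 36.2 and 21.4 nCPM (log2 3.62). Sik1, a kinase that restrains CREB coactivators, and Crem, a CREB family repressor, both chosen after their values were seen, had log2 fold changes of 4.26 and 2.60. Among phosphodiesterases, which degrade cAMP, Pde4d rose while Pde4b fell from 165, 183 and 170 nCPM to 86, 78.7 and 97.4 nCPM (log2 -0.99). The other lower member was Cited2, a CBP/p300 binding protein (log2 -0.81). The epidermal growth factor receptor ligand Areg had 0 counts after rmGM-CSF and 6, 11 and 4 counts after 4T1 CM, at least 6.23-fold higher against 3 counts over the group, and was under the filter for testing.

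Immediate early and MAPK feedback genes leaned to 4T1 CM. The immediate early list shares members, such as Nr4a3, with the cAMP list, so their counts are not independent. Of 22 immediate early transcription factors, 15 were higher and 3 lower (median 1.21), against 17.6% and 18.6% of all tested genes. The lower ones were Egr2, a zinc finger factor, at 104 to 106 and 16.7 to 21.8 nCPM (log2 -2.51), the stress factor Atf3, at 192 to 219 and 78.5 to 92.6 nCPM (log2 -1.22), and Klf6 (log2 -0.68). Of 12 tested feedback inhibitors of the MAPK pathway, 8 were higher and 3 lower (median 0.87). Errfi1, an inhibitor of the epidermal growth factor receptor, was at 24.3, 28.7 and 23.2 nCPM against 331, 343 and 273 nCPM (log2 3.63, SE 0.08, adjusted p = 3.37e-16). The ERK phosphatases Dusp5 and Dusp6 were at 12.3 to 14.3 and 29.7 to 40 nCPM after rmGM-CSF and 115 to 137 and 134 to 194 nCPM after 4T1 CM. Dusp2, a nuclear phosphatase, went down, from 16.7, 18.5 and 20 nCPM to 5.39, 5.05 and 6.56 nCPM (log2 -1.70).

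**Figure D2:**
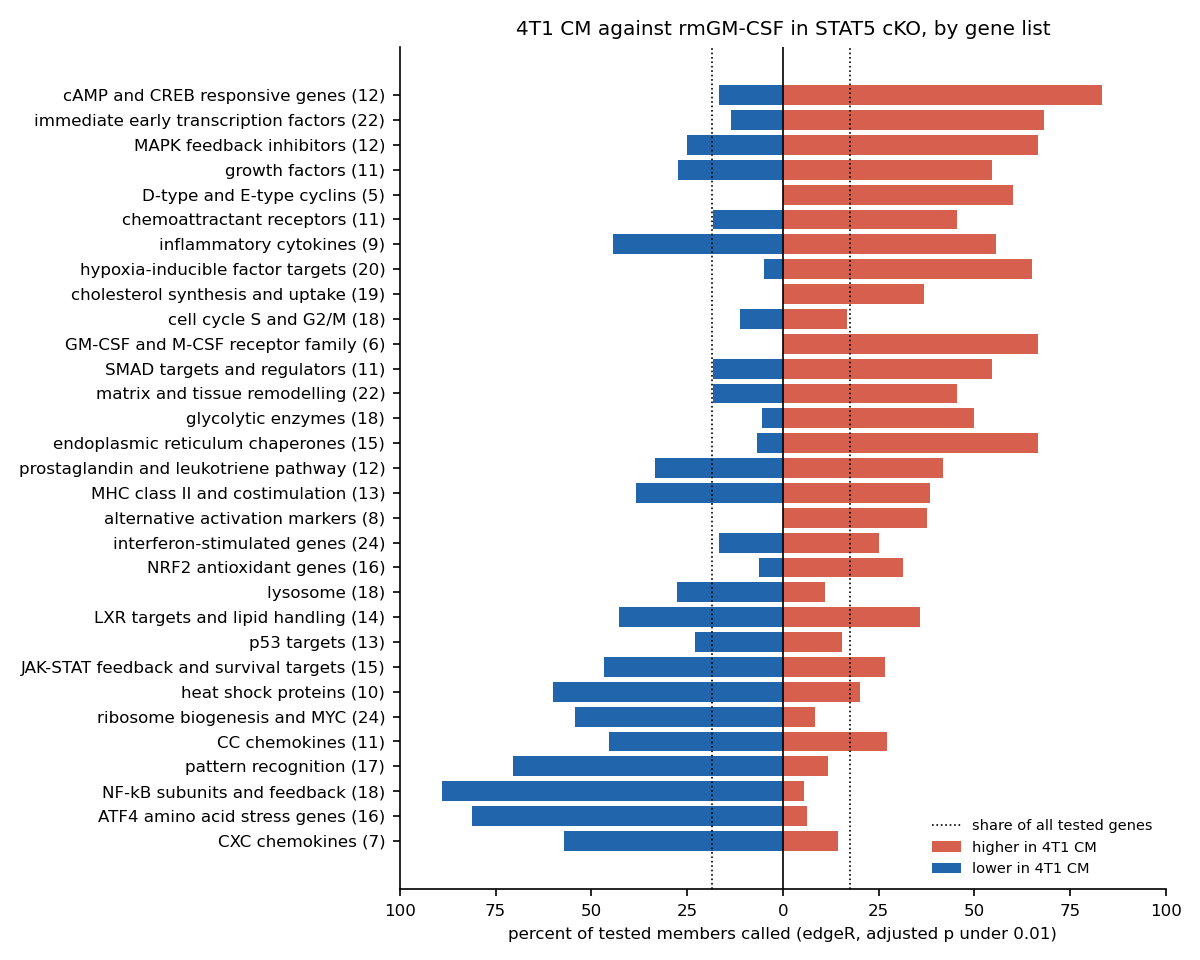
Percent of the tested members of 31 gene lists (number tested in parentheses) called higher (red) or lower (blue) in 4T1 CM than in rmGM-CSF in STAT5 cKO, ordered by the median log2 fold change; dotted lines mark the 17.6% and 18.6% of all tested genes. The cAMP list is at the top with 10 of 12 higher, and the NF-kB list near the bottom with 16 of 18 lower.

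Of 20 tested targets of the hypoxia-inducible factor, 13 were higher and 1 lower (median 0.49). Vegfa (chr17:46016993-46032369), the principal vascular growth factor, was at 30.3, 22.6 and 25.2 nCPM after rmGM-CSF and 383, 322 and 371 nCPM after 4T1 CM, 13.8-fold higher (log2 3.79, SE 0.08, adjusted p = 3.37e-16). Mxi1, a MAX partner, and Ddit4, an mTOR inhibitor, were at 24.4 to 29.1 and 1.34 to 1.96 nCPM against 156 to 163 and 6.15 to 6.89 nCPM, and Kdm3a, a histone demethylase, was the lower member (log2 -0.60). ACGTG was present in the promoters of 15 of the 19 list genes in the table, against 21.8% of all genes. The list was made of known targets, so this share does not bear on the response seen here. For Vegfa the only match lay in a window inside the gene (chr17:46025114-46025413), before an internal start. Of 18 glycolytic genes, 9 were higher and 1 lower, a count of 4 and 2 without mouse 115. Hexokinase 2 (Hk2) was at 53.3, 55.5 and 59.9 nCPM against 173, 145 and 164 nCPM (log2 1.52), the lactate transporter Slc16a3 at 42.2 to 43.6 against 75.6 to 104 nCPM, and Eno2, an enolase, was the lower member (log2 -0.77). Hk2 is also a member of the hypoxia list, so the counts of these lists are not independent.

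Matrix, adhesion and growth factor genes were mixed. Of 22 matrix and remodelling genes, 10 were higher and 4 lower. Beside Thbs1, the metalloprotease inhibitor Timp1 rose, from 1.67, 1.52 and 1.85 nCPM to 13, 18.1 and 16.4 nCPM (log2 3.24). The collagenase Mmp13 and the macrophage elastase Mmp12 fell, with log2 fold changes of -1.13 and -0.92, as did the syndecan Sdc4 (log2 -0.86). Membrane protease Mmp14 was at 27.1, 42.7 and 35.8 nCPM against 16.9, 77.8 and 29.4 nCPM and was not called (log2 0.05, adjusted p = 0.857). Without mouse 115 it was lower (log2 -0.48, adjusted p = 0.00544). Of 11 tested growth factors, 6 were higher and 3 lower. Fgf2, an angiogenic fibroblast growth factor, had 0, 1 and 1 counts after rmGM-CSF and 103, 135 and 127 counts after 4T1 CM, a ratio of 162 with a 95% counting interval of 44.6 to 1350. Hbegf, a ligand of the epidermal growth factor receptor, was at 3.33, 3.52 and 4.28 nCPM against 8.37, 11.4 and 9.37 nCPM (log2 1.40). Igf1 (insulin-like growth factor) and Pdgfb (platelet-derived growth factor) fell, from 662 to 763 nCPM to 429 to 505 nCPM and from 274 to 280 nCPM to 147 to 178 nCPM. Among 11 tested SMAD targets and regulators, 6 (54.55%) were higher and 2 (18.2%) lower, against 17.6% and 18.6% of all tested genes. TGF-beta signaling was not measured. The inhibitors Smad7 and Pmepa1 were at 5.05 to 7.6 and 7.3 to 10 nCPM after rmGM-CSF and 50.2 to 56.1 and 70.4 to 97.1 nCPM after 4T1 CM. The lower members were Id3, a helix-loop-helix inhibitor (log2 -0.88), and the receptor Tgfbr1, whose call was lost without mouse 115 (log2 -0.28, adjusted p = 0.016).

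Stress programs separated. Of 16 tested genes of the ATF4 amino acid response, 13 were lower and 1 higher (median -0.94). Trib3, a pseudokinase, was at 20.6, 21.9 and 18.1 nCPM against 7.71, 6 and 7.11 nCPM (log2 -1.55), and Ppp1r15a (GADD34, a phosphatase subunit) at 31 to 33.1 against 10.5 to 13.9 nCPM (log2 -1.45). The exception was Slc7a11, the cystine transporter, at 34.6, 45.4 and 41.1 nCPM against 65.1, 84.7 and 81.1 nCPM (log2 0.93). Endoplasmic reticulum chaperones had 10 of 15 higher and 1 lower, with small changes (median 0.24), and 5 higher without mouse 115. Without mouse 116 they had 8 higher and 2 lower. The growth factor-like Manf and Creld2 rose by log2 0.49 and 0.74, and Herpud1, of the degradation pathway, fell from 117, 119 and 126 nCPM to 55.2, 51.1 and 75.9 nCPM. Heat shock genes had 6 of 10 lower and 2 higher (3 lower without mouse 115 or 116). Hspa1b and Hspa1a, the near-identical inducible HSP70 genes whose reads can be split between them, were at 15.2 to 20.4 and 7.79 to 9.46 nCPM after rmGM-CSF and 1.42 to 3.17 and 1.8 to 2.97 nCPM after 4T1 CM. Of 16 antioxidant genes of NRF2, 5 were higher, led by sulfiredoxin Srxn1 (log2 0.87) and Osgin1 (log2 0.86), and 1, heme oxygenase Hmox1, was lower (log2 -0.46).

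Myc, a regulator of growth, was at 49.5, 48.9 and 52.4 nCPM after rmGM-CSF and 120, 112 and 114 nCPM after 4T1 CM (log2 1.2, adjusted p = 4.31e-10). Of the 24 tested genes of the list, which counts Myc, 13 were lower and 2 higher (median -0.25), with 7 lower without mouse 115, and the higher count fell to 1 without mouse 114 or 116. The higher member beside Myc was Rrp12, a ribosome assembly factor (log2 0.50), whose call was the one lost. Wdr12 and the nucleolar GTPase Gnl3 fell by log2 0.76 and 0.71, and Polr1a, the large subunit of RNA polymerase I, by 0.65. Cyclins D1, D2 and D3 (Ccnd1, Ccnd2, Ccnd3) were all higher, by log2 0.70, 0.91 and 1.41. Of 18 genes of S and G2/M phase 3 were higher and 2 lower, a lower count of 1 without mouse 115 or 116. Their shares of 16.7% and 11.1% were not above the 17.6% and 18.6% of all tested genes. Proliferation marker Mki67 was at 58.9, 68.2 and 58.8 nCPM against 33, 49.9 and 28.9 nCPM (log2 -0.76), and the mitotic kinase Cdk1 at 6.45 to 7.21 against 15.2 to 26.5 nCPM (log2 1.46). Of 13 p53 targets 2 were higher and 3 lower (15.4% and 23.1%), near the shares of all tested genes. Those called included the p21 gene Cdkn1a (log2 0.42) and Sesn1, a sestrin (log2 -1.87).

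Lipid genes showed where mouse 115 stood apart. Of 19 tested genes of cholesterol synthesis and uptake, 7 were higher and 0 lower, and 4 were higher without mouse 115. The list's median difference was 0.73 in mouse 115 and 0.06 and 0.04 in mice 114 and 116, on the scale of log2(nCPM + 0.1). Hmgcs1, of the mevalonate pathway, was at 90.8, 165 and 84.1 nCPM after 4T1 CM and 77.8 to 87.5 nCPM after rmGM-CSF and was not called (adjusted p = 0.0224). Targets of LXR and lipid handling genes divided, 5 higher and 6 lower of 14. Nr1h3, which encodes LXR alpha, was at 56.2, 52 and 63.4 nCPM against 22.1, 24.5 and 25.3 nCPM (log2 -1.25), and the lipid regulator Pparg at 52 to 59.4 against 20.9 to 29.4 nCPM (log2 -1.25). Scd2 (a fatty acid desaturase) and the cholesterol exporter Abca1 rose, from 35.3 to 50.5 nCPM to 176 to 301 nCPM and from 519 to 606 nCPM to 920 to 1020 nCPM.

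Of 13 tested genes of MHC class II and costimulation, 5 were higher and 5 lower, with 3 higher without mouse 115. The B7 ligands Cd80 and Cd86 rose, from 11.2, 11.2 and 13 nCPM to 36.7, 49.7 and 46.1 nCPM (log2 1.90) and from 51, 45.3 and 54.4 nCPM to 146, 158 and 159 nCPM (log2 1.62). Icosl and Tnfsf9, ligands of ICOS and 4-1BB, fell from 250, 229 and 219 nCPM to 25.9, 21 and 34.7 nCPM (log2 -3.11) and from 44.5, 48.9 and 51.5 nCPM to 4.44, 4.06 and 4.66 nCPM (log2 -3.46). Cd40 fell by log2 1.10. The class II chain H2-Aa, at 135 to 191 and 171 to 220 nCPM, and the invariant chain Cd74 were not called.

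Among 24 interferon-stimulated genes, 6 were higher and 4 lower, near the shares of all tested genes. The lower ones included the interferon regulatory factor Irf1, at 257, 231 and 229 nCPM against 47.4, 37.6 and 46.1 nCPM (log2 -2.46), and the guanylate-binding proteins Gbp5 (log2 -2.82) and Gbp2 (log2 -1.39), which belong to a family of similar genes that can share reads. Irf7, the master factor of the type I interferon response, was at 104 to 122 nCPM after rmGM-CSF and at 136, 444 and 168 nCPM after 4T1 CM. Its log2 fold change of 1.0 became 0.42 without mouse 115 (adjusted p = 2.44e-04), and 4 interferon-stimulated genes were higher without that mouse.

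Csf2rb, the shared beta chain of the GM-CSF receptor, was at 689, 688 and 781 nCPM against 1250, 1149 and 1318 nCPM (log2 0.79, SE 0.05), and its close paralog Csf2rb2, with which it can share reads, at 523 to 547 against 648 to 789 nCPM (log2 0.45). Of the 6 genes of the receptor family 4 were higher and 0 lower, and the M-CSF receptor Csf1r, at 4031 to 4175 and 3838 to 4091 nCPM, was not called. Of 15 JAK-STAT feedback and survival genes, 4 were higher and 7 lower. Socs2, a suppressor of cytokine signaling and a known STAT5 target, was at 0.637, 0.847 and 0.638 nCPM after rmGM-CSF, 0.617 to 1.06 nCPM in DMEM and 13.5, 15.2 and 17.3 nCPM after 4T1 CM (log2 4.40, SE 0.22, adjusted p = 1.68e-11). In fl/fl cells it was at 28.8 and 28.4 nCPM after rmGM-CSF and at 79.9 and 117 nCPM after 4T1 CM. The kinase gene Pim1 fell from 269, 246 and 264 nCPM to 155, 121 and 165 nCPM (log2 -0.83), and Bcl2l1, encoding BCL-XL, stayed uncalled at 234 to 268 and 219 to 244 nCPM.

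Chemoattractant receptors had 5 of 11 higher and 2 lower (4 lower without mouse 115). Ccr1, a receptor for CC chemokines, was at 20.6 to 23.6 nCPM against 64.5 to 80.7 nCPM, and the atypical receptor Ccrl2 fell from 106, 109 and 114 nCPM to 61.8, 57.3 and 63 nCPM (log2 -0.85). Of 12 prostaglandin and leukotriene genes 5 were higher and 4 lower, with 2 lower without any 1 of the cKO mice. The phospholipase Pla2g4a and the EP2 receptor Ptger2 rose by log2 1.39 and 1.34, the EP4 receptor Ptger4 fell from 180, 168 and 185 nCPM to 65.7, 57.7 and 66 nCPM (log2 -1.49), and cyclooxygenase Ptgs2 was at 27.3 to 30.5 and 30.9 to 35 nCPM (adjusted p = 0.0381). Of 8 tested alternative activation markers 3 were higher. Il4ra, the IL-4 receptor alpha chain, was at 71.4, 74.4 and 78.7 nCPM against 759, 898 and 856 nCPM (log2 3.48, SE 0.06, adjusted p = 1.91e-17), while Arg1 (arginase) had 0 counts after rmGM-CSF and 11, 36 and 4 after 4T1 CM, at least 15.1-fold higher against 3 counts over the group. Of 18 lysosomal genes 2 were higher and 5 lower (11.1% and 27.8%, against 17.6% and 18.6% of all tested genes). The counts were 0 and 2 without mouse 115 and 2 and 3 without mouse 116.

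Against DMEM, rmGM-CSF changed 3314 genes (25.5%) and 4T1 CM changed 5130 (39.4%). Without mouse 115 the first count was 2170. These comparisons share the DMEM libraries with each other and the stimulated libraries with the main contrast, so their values are only set side by side. List medians after rmGM-CSF and 4T1 CM were 1.6 and 0.75 for NF-kB genes, 2.34 and 1.5 for CXC chemokines and 0.85 and -0.07 for ATF4 genes, log2 over DMEM. For immediate early genes they were 0.63 and 2.42, for SMAD genes 0.19 and 1.01, and for hypoxia targets 0.07 and 0.60. For MAPK feedback inhibitors both stimuli were high, 1.71 and 2.0.

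**Figure D3:**
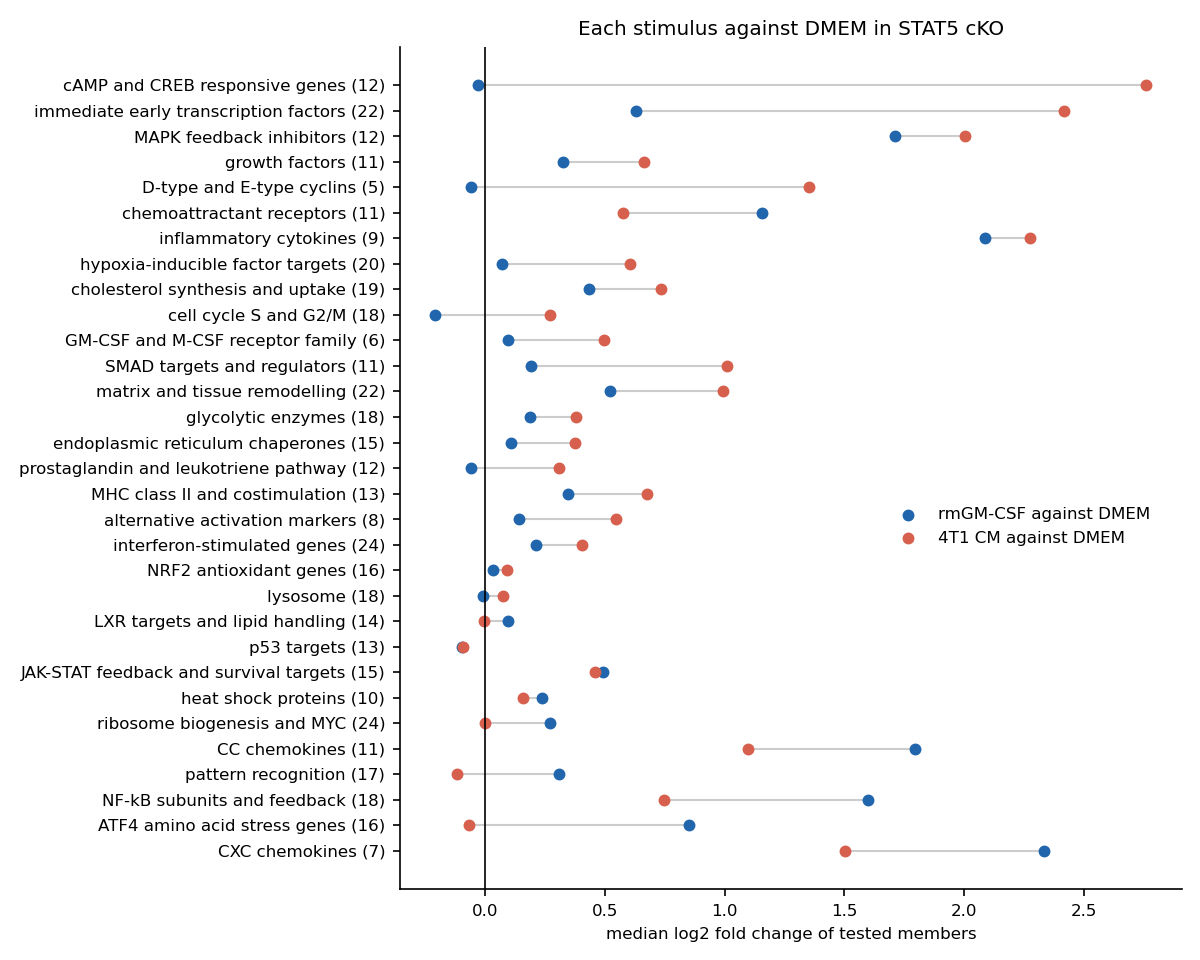
Median log2 fold change over DMEM of the tested members of 31 gene lists in STAT5 cKO, for rmGM-CSF (blue) and 4T1 CM (red), which share the DMEM libraries. The cAMP list is at -0.03 after rmGM-CSF and 2.76 after 4T1 CM, and the NF-kB list at 1.6 and 0.75.

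Most of the contrast was also present where STAT5 was intact. In fl/fl macrophages 4297 genes (33%, or 1971 without mouse 113) were called between 4T1 CM and rmGM-CSF, and 3368 were called in the same direction in both genotypes, 71.6% of the cKO calls and 78.4% of the fl/fl calls. Across the 13005 genes, which are not independent replicates, the log2 fold changes of the genotypes correlated with a Pearson r of 0.85 and a Spearman rho of 0.80. Tnf was at 632 and 658 nCPM against 35.6 and 29.8 nCPM in fl/fl cells, and its difference between the genotypes was not called (adjusted p = 0.105). The same held for Thbs1 (adjusted p = 0.972) and Vegfa (adjusted p = 0.49).

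The test of the difference itself, an interaction term, called 276 genes (2.12%), 231 with a higher difference in cKO (1.78%) and 45 with a lower one (0.346%). Of these, 224 were called within cKO, 81.2% of the interaction calls and 4.76% of the cKO calls, and 25 were called in opposite directions in the genotypes. Nfil3, a basic leucine zipper repressor, had the smallest adjusted p. It was at 10.2, 10.8 and 8.94 nCPM after rmGM-CSF and 131, 124 and 126 nCPM after 4T1 CM in cKO, and at 32.6 and 38.9 against 84 and 100 nCPM in fl/fl (interaction log2 2.30, SE 0.11, adjusted p = 2.27e-09). Thus the levels after 4T1 CM were nearer to each other than those after rmGM-CSF. Trib1, a pseudokinase, was at 53.5 to 62.7 against 193 to 209 nCPM in cKO and at 156 and 182 against 169 and 176 nCPM in fl/fl, where it was not called (adjusted p = 0.749). Il4ra was at 208 nCPM in both fl/fl mice after rmGM-CSF and at 886 and 943 nCPM after 4T1 CM (interaction log2 1.35). Socs3, a suppressor of cytokine signaling, and Ccl7 were higher after 4T1 CM in cKO and lower in fl/fl. The small cKO rise of Socs3 (log2 0.29, adjusted p = 0.000312) was no longer called by limma-voom or without mouse 114 (log2 0.25), and its highest adjusted p over the alternatives was 0.0952. The interaction of Ccl7 (log2 2.77) was not called by limma-voom (adjusted p = 0.0137). Socs3 was at 162, 181 and 170 against 212, 214 and 202 nCPM in cKO and at 680 and 653 against 310 and 311 nCPM in fl/fl, and Ccl7 at 50.9 and 77.3 against 20.3 and 28.1 nCPM in fl/fl.

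Among the genes with a lower difference in cKO, Bcl6, a transcriptional repressor of germinal center and myeloid cells, was at 263, 265 and 276 against 203, 198 and 224 nCPM in cKO, and at 16.5 nCPM in both mice against 30.5 and 30.2 nCPM in fl/fl (interaction log2 -1.25, adjusted p = 1.29e-06). Its DMEM levels were 143 to 157 nCPM in cKO and 139 and 153 nCPM in fl/fl. Jag1, a Notch ligand, was at 169, 214 and 171 against 243, 303 and 235 nCPM and at 88 and 73.6 against 260 and 200 nCPM. Kcnj2 had fl/fl levels of 46.8 and 55.8 nCPM after rmGM-CSF and 6.03 and 5.42 nCPM after 4T1 CM, so that the genotypes differed after rmGM-CSF and met after 4T1 CM. Fgd3, a Cdc42 exchange factor, fell in cKO (log2 -0.61) and was not called in fl/fl (log2 0.17, adjusted p = 0.0405). Leaving out 1 of the 2 fl/fl mice moved the count of interaction calls from 276 to 154 (mouse 112) or 135 (mouse 113).

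**Figure D4:**
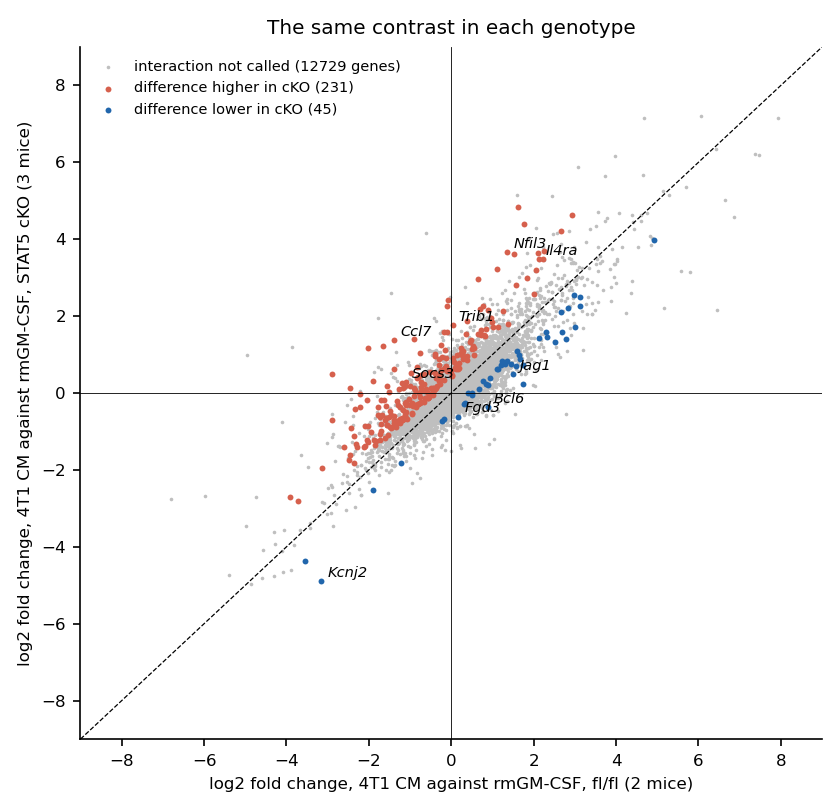
Log2 fold change of 4T1 CM against rmGM-CSF for 13005 genes in fl/fl (x axis, 2 mice) and STAT5 cKO (y axis, 3 mice). Coloured points are the 231 (red) and 45 (blue) genes whose difference between the genotypes was called, and the dashed line marks equal change.

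**Figure D5:**
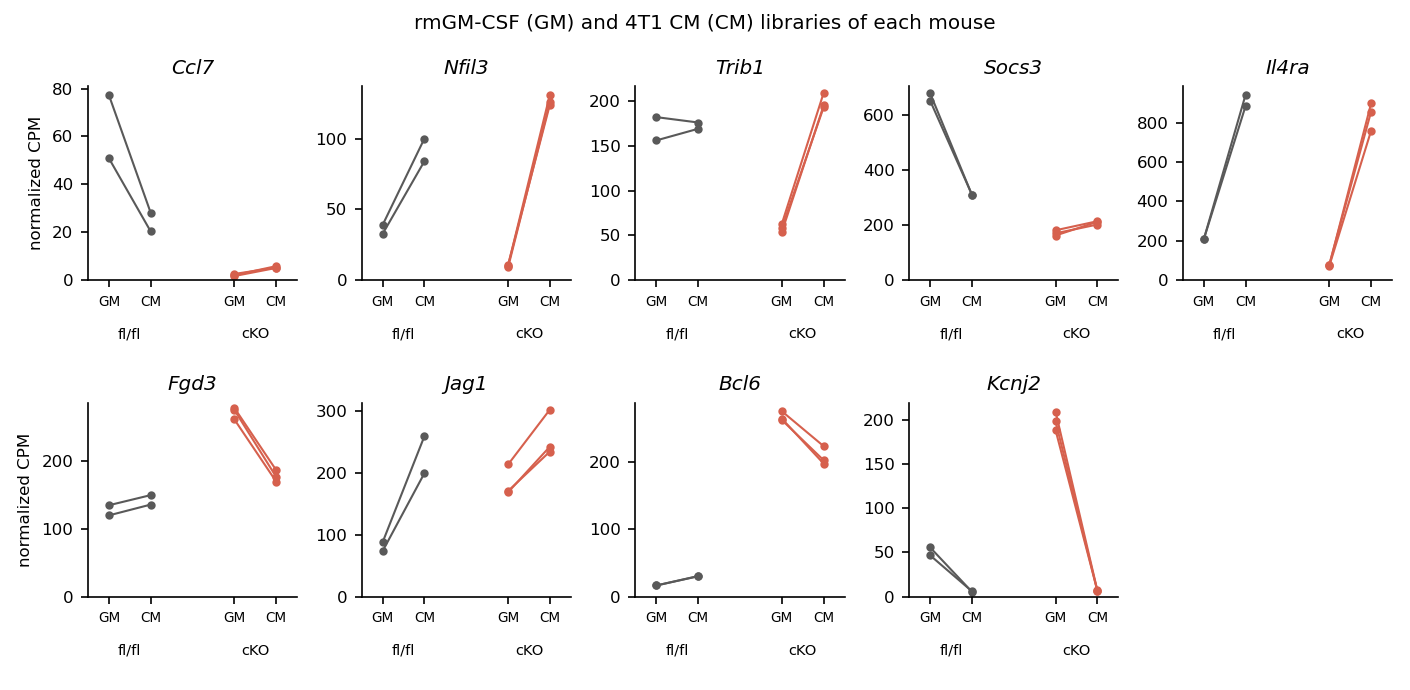
Normalized CPM after rmGM-CSF (GM) and 4T1 CM (CM) for 9 genes, 5 with a higher and 4 with a lower difference in cKO, among those with the smallest interaction adjusted p, with a line for each of 2 fl/fl mice (grey) and 3 STAT5 cKO mice (red). Nfil3 starts at 8.94 to 10.8 nCPM in cKO and at 32.6 and 38.9 nCPM in fl/fl.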

How the data were processed

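RNA of 15 libraries was sequenced as read pairs. The authors trimmed reads with Trimmomatic 0.33, aligned them to GRCm38 with HISAT2 2.1.0 and made the gene counts with featureCounts 1.6.2, by strand, from pairs with both ends mapped; they removed 1 fl/fl replicate. The deposited values are raw counts per gene and library, 16016736 to 22883108 in total. Here, genes above 1 CPM in at least 2 libraries (13005 of 55385) were tested with edgeR 4.0.16 (R 4.3.3), using RLE factors (0.945 to 1.08), the quasi-likelihood F test on all 15 libraries, treatment within genotype and the mouse as a block. The common biological coefficient of variation was 0.0668. P-values were Benjamini-Hochberg adjusted over all tested genes, with calls under 0.01. The SE is the log2 fold change divided by the root of F.

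The labels give libraries of 1 mouse the same number. Deviations of its 2 libraries from their group means correlated by 0.161, 0.162 and 0.214, against -0.144 to -0.038 for different mice. Because deviations within a group sum to 0, positive values for the same mouse push those for different mice below 0. The negative values are therefore not an independent comparison. Named genes were the 12 per direction with the largest change, up to 3 called members per direction and 2 uncalled members of each list, Stat5a and Stat5b, and the 5 per direction with the smallest interaction p. Genes said to be chosen after their values were seen lie outside this rule, as does Areg. Members and lists were chosen with earlier results of these data known. Alternatives were TMM, other filters, the likelihood ratio test, DESeq2 1.42.0, limma-voom (limma 3.58.1), no block, fewer libraries, a threshold of 0.05, thinned counts and each mouse left out; the longer NF-kB motif was added after seeing the data. The scripts were tested on simulated counts. Intervals and floors cover counting error only. A few genes that the rule names are not reported here.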

Additional observations from a re-analysis of the deposited data

Results flagged for a closer look

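Of the 137 named genes tested, 38 had an effect of 4T1 CM against rmGM-CSF that differed between the genotypes in the test of the difference itself (interaction term, adjusted p from 2.27e-09 to 0.00974, edgeR, adjusted over all 13005 genes). Over all tested genes the share called was 2.12%. Some of the 38 were named for their small interaction p, and the others for large changes or from lists chosen with earlier results known. The count therefore does not measure how often such genes depend on STAT5. The values in parentheses are the log2 fold change in STAT5 cKO minus that in fl/fl. It was higher in cKO for 29 genes. Differences above 1.5 were those of Nrg1 (3.22), Ccl7 (2.77), Socs2 (2.63), Hbegf (2.30), Nfil3 (2.30), Nr4a3 (2.1), Ccl2 (2.01), Ptgs2 (1.76), Trib1 (1.74), Rab44 (1.70) and Errfi1 (1.52). Differences from 1 to 1.5 were those of Socs3 (1.39), Il4ra (1.35), Il1a (1.23), Cdkn1a (1.22), Il1b (1.17), Ccrl2 (1.16) and Osm (1.13). Differences under 1 were those of Cd83 (0.96), Bcl3 (0.92), Gbp5 (0.91), Cited2 (0.88), Hk2 (0.80), Pim1 (0.74), Gbp2 (0.70), Atf3 (0.66), Csf2rb (0.60), Mxi1 (0.56) and Klf6 (0.46). It was lower in cKO for 9 genes, Kcnj2 (-1.75), Bcl6 (-1.25), Ptger2 (-1.19), Jag1 (-1.01), Ccnd1 (-0.87), Cxcl2 (-0.81), Fgd3 (-0.78), Dusp6 (-0.64) and Egr2 (-0.61). The fl/fl side rests on 2 mice.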

How the results depend on the processing

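Of 3589 values of 225 named genes under the alternatives, 3511 kept their side of the threshold without a reversal, 50 lost the call, 26 gained one and 2 reversed. Some uncalled genes crossed 0 and stayed uncalled, among them Stat5b (-0.102 to 0.328) and Tlr3 (-0.083 to 0.125), and are counted among the 3511. A change of sign counted as a reversal only where either fit called the gene. The reversals came without mouse 115: Ccl5 went from 0.74 to -1.517 and Mmp14 from 0.05 to -0.481, with ranges over the left-out mice of -1.517 to 1.553 and -0.481 to 0.362. Of 140 values of 10 interaction genes, 1 lost the call, Ccl7 under limma-voom (adjusted p = 0.0137). Of 496 values of 31 list medians, 19 in 9 lists moved by more than the spread between mice, among them those of CC chemokines (-0.47 to -0.175 with fewer libraries fitted) and chemoattractant receptors (0.51 to 0.18 without mouse 115). Fits on fewer libraries applied the low-count filter anew, so the members behind a median can differ. Of 130 counts of calls, 113 stayed within 1.5 times the value given. The count of 276 interaction calls became 511 at an adjusted p under 0.05, 522 with no low-count filter and 418 by the likelihood ratio test, and ran from 135 to 230 with 1 mouse left out. Its 231 higher calls became 390 at 0.05 and 393 with no filter, and ran from 122 to 197, while its 45 lower calls became 121, 129 and 91 by the likelihood ratio test, and ran from 13 to 34. With 1 mouse left out, the fl/fl count of 4297 ran from 1971 to 4301 and the count of rmGM-CSF against DMEM from 2170 to 2443. Without the replicate block, the main contrast had 2156 higher and 2278 lower calls, and the interaction 167 and 19. The causes were not tested. With 3 cKO and 2 fl/fl mice, a fit without a fl/fl mouse assumes that the lone sample varies like the others. At 16016736 to 22883108 counts per library, a level under 0.131 to 0.187 CPM cannot be told from 0.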
